A study of Mus musculus with 4 samples.

Results

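A bidirectional promoter is a stretch of DNA from which 2 genes are transcribed away from each other, 1 on each strand. The regions described here are the 444 stretches called more acetylated on lysine 9 of histone H3 (H3K9ac) in supplemented choline whose midpoint lay at such a promoter, of 45495 regions called for supplemented choline and 45855 in the whole deposited list. A promoter counted as bidirectional when the outermost annotated starts of 2 protein-coding genes lay on opposite strands, pointed away from each other and were at most 1000 bp apart. A region belonged to it when its midpoint lay between the starts or within 500 bp beyond either. The annotation, GENCODE M21 on the mouse build mm10, held 754 such pairs with 1487 distinct starts, and 42 of the pairs shared a gene with another pair. The comparison set was the 19174 one-gene starts, which had no other protein-coding start within 1000 bp and held 3787 regions within 500 bp.

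The cells were HT22, an immortalised line derived from mouse hippocampal neurons, kept for 48 h in 5 µM (control) or 70 µM (supplemented) choline chloride. Chromatin bound by an antibody to H3K9ac was sequenced as 2 libraries beside 2 libraries of input DNA. Which library had which choline level is not in the labels, so at most 1 ChIP library stood behind a level, and no difference between the levels has a replicate check. That the regions belong to 70 µM rests on the region names in the deposited list, which set 5 against 70. The name of the deposited list speaks instead of input against H3K9ac, and nothing in the labels settles which holds, so "70 µM region" stands for this reading throughout. The list holds only regions called different between the levels. A promoter without a region may carry H3K9ac at both levels, and a change in every cell cannot be told apart from a change in some cells. The reads behind a region are not known here. No test of a difference was run: starts and regions of 1 list are not replicates. Every interval given for a share or a median is an exact 95% interval that covers counting error only.

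H3K9ac is a mark of active promoters, laid down by histone acetyltransferases and usually found on the nucleosomes that flank an open, nucleosome-poor start site. At a bidirectional promoter 1 open stretch of DNA serves both genes, so the first nucleosomes of each gene lie on either side of it. Such promoters are known to be rich in CpG islands and poor in TATA boxes, and to drive many housekeeping genes of DNA repair, mitochondria and RNA synthesis. Choline is oxidised to betaine, a methyl donor of the one-carbon cycle, and is built into phosphatidylcholine.

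The stretches between the 2 starts of 10 pairs are listed, from pairs that did and did not have a region. Their DNA is printed to show what the open stretch holds, except at Cct5/Fam173b, Brca1/Nbr1 and Hist1h2an/Hist1h2bp. The lines of these pairs give only the reason for naming the pair. The sequences are RefSeq GRCm38.p6, which is the build mm10, read 5′ to 3′ on the plus strand from the base after the minus-strand gene's start to the base before the plus-strand gene's start, and hold no annotated exon. Capitals mark short motifs found by exact match on either strand: CCGGAAG for ETS factors such as GABPA, GCATGCGC for NRF1, the GC box GGGCGG for SP1, the CCAAT box for NF-Y, the E-box CACGTG and the TATA box TATAAA. Capitals run together where matches overlap, as with the NRF1 motif, whose match on one strand can overlap that on the other. In the first 3 pairs a 70 µM region had its midpoint in the stretch between the starts. In the next 5 the regions lay to the side of that stretch or reached over its edge, and the last 2 pairs had no 70 µM region.
Kctd10/Ube3b: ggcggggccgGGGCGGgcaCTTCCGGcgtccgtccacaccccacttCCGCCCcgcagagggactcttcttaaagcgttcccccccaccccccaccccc
Mrpl37/Cyb5rl: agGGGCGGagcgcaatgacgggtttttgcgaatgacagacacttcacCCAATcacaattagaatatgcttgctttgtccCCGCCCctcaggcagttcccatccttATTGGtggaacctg
Hist1h2bf/Hist1h2ad: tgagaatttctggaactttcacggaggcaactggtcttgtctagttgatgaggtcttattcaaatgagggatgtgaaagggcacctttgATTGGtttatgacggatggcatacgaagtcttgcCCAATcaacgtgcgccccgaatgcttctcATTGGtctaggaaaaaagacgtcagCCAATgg
Kars/Terf2ip: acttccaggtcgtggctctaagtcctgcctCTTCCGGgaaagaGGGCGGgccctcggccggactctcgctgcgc
Taf5l/Urb2: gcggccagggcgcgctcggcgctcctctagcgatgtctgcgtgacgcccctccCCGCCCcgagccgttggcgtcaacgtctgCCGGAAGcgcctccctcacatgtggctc
Cct5/Fam173b: list: chaperones
Brca1/Nbr1: textbook
S100a1/S100a13: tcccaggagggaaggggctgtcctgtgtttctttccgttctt
Bckdha/Exosc5: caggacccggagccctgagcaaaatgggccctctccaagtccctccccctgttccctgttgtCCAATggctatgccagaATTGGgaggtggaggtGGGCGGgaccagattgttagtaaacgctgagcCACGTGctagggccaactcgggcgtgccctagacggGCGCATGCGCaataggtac
Hist1h2an/Hist1h2bp: cond1 region

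The stretch of Kctd10/Ube3b is chr5:114380509-114380606, that of Mrpl37/Cyb5rl chr4:107066869-107066987 and that of Hist1h2bf/Hist1h2ad chr13:23574197-23574380. Those of the next 5 are chr8:112011324-112011397, chr8:124021398-124021507, chr15:31601805-31601851, chr11:101551956-101552148 and chr3:90514393-90514434, in the order listed. Bckdha/Exosc5 is chr7:25658982-25659163 and Hist1h2an/Hist1h2bp is chr13:21787219-21787460. Where the DNA is not printed, the stretch of Cct5/Fam173b held 2 NRF1 matches and that of Brca1/Nbr1 held 1 CCAAT box. That of Hist1h2an/Hist1h2bp held 4 CCAAT boxes and 1 TATA box. The pair with the highest score, S100a1/S100a13, shows none of the motifs, and Bckdha/Exosc5, without a region, shows 4 kinds.

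About 1 in 2 bidirectional promoters had a 70 µM region. A region was present at 379 of the 754 pairs, 50.3% (46.6 to 53.9), and absent from the list at 375. Counted by single starts and windows of equal length, 645 of 1487 bidirectional starts, 43.4% (40.8 to 45.9), had a region midpoint within 500 bp, against 20.2% of all 21938 protein-coding starts and 17.5% (17.0 to 18.1) of one-gene starts. The difference between bidirectional and one-gene starts was 25.9 percentage points, a ratio of 2.48. The remaining 1277 starts, near another start but in no divergent pair, stood between them at 34.3%. Starts of a pair share regions: both starts were near a region in 278 pairs and 1 of them in 101. Most pairs with a region had 1, while 73 had 2 and 2 had 3. The difference depended on the limits set: it was 9.48 points with a window of 250 bp and 37.7 with 1000 bp. It turned to -0.301 points (-0.582 to 0.196) with only the regions above the upper quartile of scores in the authors' deposited table. Of these, 4 were at bidirectional promoters. The interval is that of the bidirectional share less the one-gene share taken as fixed, and it spans both signs.

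The difference was smaller once 2 features of these promoters were taken into account. The upstream side of a bidirectional start is the gene side of its partner, so a symmetric window looks at 2 genes. With only the 500 bp into the gene counted, 26.9% of bidirectional and 12.2% of one-gene starts had a region, a difference of 14.7 points and a ratio of 2.21. Bidirectional starts also held more CpG sites, with a median of 67 in the 1001 bp around the start against 34 at one-gene starts. Among one-gene starts the median was 64 for those with a region and 24 for those without, while among bidirectional starts it was 71 and 65.

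Within classes of CpG number the gene-side shares came closer. The classes are cut at the quartiles of bidirectional starts. At 55 to 67 CpG sites the shares were 25.8% and 21.03%, and at 68 to 84 they were 30.5% and 24.2%. At 85 or more CpG sites they were 31.7% and 22.4%, a ratio of 1.42. In these 3 classes bidirectional starts were thus 4.81, 6.38 and 9.33 points above one-gene starts, and the intervals of the 2 kinds overlapped in the first 2 of them. Below 55 CpG sites the shares were 19.9% and 6.76%, but there the median CpG number was 44 at bidirectional and 15 at one-gene starts, so the class did not make the 2 kinds alike. The plot of shares by CpG number shows the drop from the symmetric window to the gene side.

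**Figure D1:**
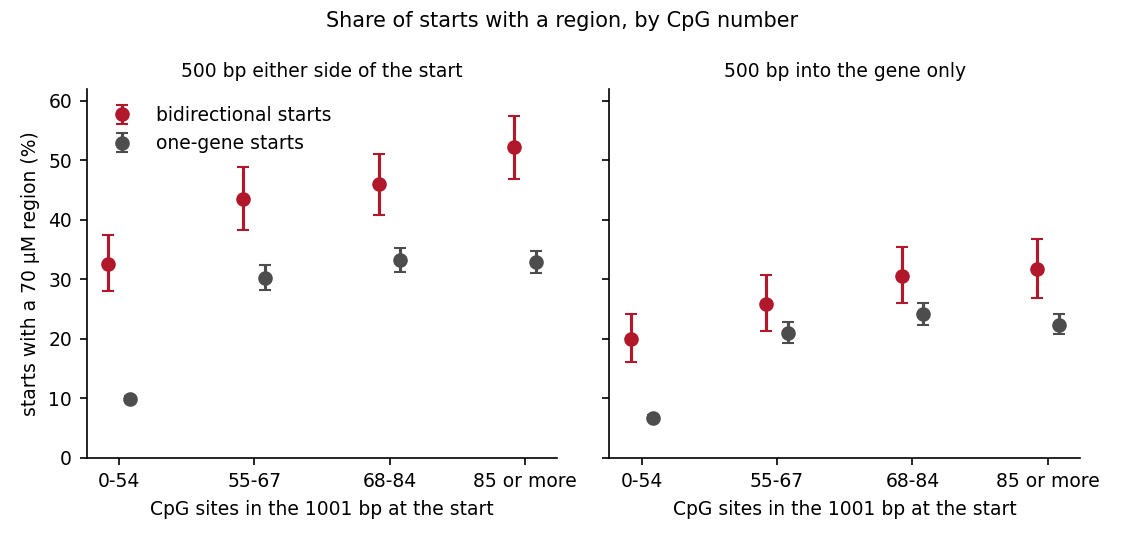
Share of bidirectional (red) and one-gene (grey) starts with a 70 µM region in percent, by the number of CpG sites in the 1001 bp at the start, for a symmetric window (left) and for the gene side alone (right); bars are exact 95% intervals. Red lies above grey in every class on both sides, by 12.8 to 22.8 points on the left and 4.81 to 13.1 points on the right.

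Most regions lay on the gene sides and not on the DNA between the genes. Of the 444 regions, 203 had their midpoint on the minus-strand gene's side, 204 on the plus-strand gene's side and 37 between the starts. The 37 are 8.33% (5.94 to 11.3) of the regions, while the stretch between the starts makes up 16.3% of the window's length. Per kb of sequence there were 0.538 regions on the minus side, 0.541 on the plus side and 0.252 between. The gene-side density was 2.14 times that between the starts, and at one-gene starts it was 1.76 times that of the 500 bp upstream (0.251 against 0.143 per kb). The stretch between the starts lies mostly near a start, with 94.9 of its 146.6 kb within 100 bp of one. Counted over pairs within that distance, the densities were closer, at 0.306 per kb between the starts and 0.351 per kb on the gene sides. At one-gene starts they were 0.155 upstream and 0.185 on the gene side. The density over the whole bidirectional window was 29.5 times that of the genome.

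Within the gene the regions were densest some way in from the start. At bidirectional starts the density rose from 0.356 per kb in the first 100 bp to 0.713 per kb at 301 to 400 bp and was down to 0.148 per kb at 1401 to 1500 bp. One-gene starts also rose and fell, from 0.185 per kb in the first 100 bp to 0.284 per kb at 401 to 500 bp and 0.129 per kb at 1401 to 1500 bp. Their maximum was lower and broader, with 0.272 to 0.284 per kb from 201 to 600 bp. The rule's edge is at 500 bp, with 92 regions at 401 to 500 bp beyond a start and 69 at 501 to 600 bp.

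**Figure D2:**
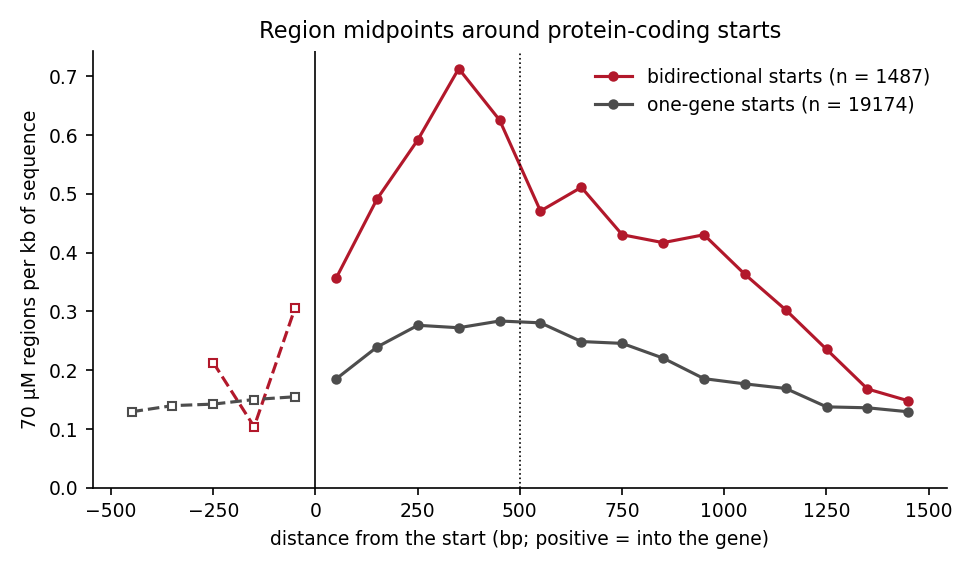
Midpoints of 70 µM regions per kb of sequence (vertical axis) by distance from the start in bp (horizontal axis, positive into the gene) for bidirectional (red) and one-gene (grey) starts; open squares joined by dashes are the upstream side, for bidirectional starts only as far as sequence between the starts exists, and the dotted line is the rule's edge at 500 bp. The red curve peaks at 0.713 per kb in the 301 to 400 bp bin and comes close to the grey curve near 1500 bp.

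By annotation, the midpoint of 181 regions (40.8%) lay in an intron of a protein-coding gene, of 124 in an untranslated exon, of 76 in a coding exon, of 27 in another exon and of 36 outside coding genes. Among regions at one-gene starts, 33.4% lay outside coding genes and 28.1% in introns. The windows differ in this by how they are built. Upstream sequence makes up 49.95% of the one-gene window, and the stretch between the starts 16.3% of a pair's window. An annotated start lay inside 89 of the 444 regions, and 23 reached over both starts of their pair. Regions in the same pair were 611 bp apart in the median from midpoint to midpoint, with a range of 263 to 1522 bp over 77 neighbours. At one-gene starts that median was 474.5 bp, with a highest value of 957 bp, but their window is shorter, since that of a pair adds the distance between its starts.

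A region on one gene's side was not accompanied more often by a region on the other's. Where the minus-strand gene had a region on its side, the plus-strand gene also had one in 49 of 202 pairs, 24.3% (18.5 to 30.8). Where it had none, the plus-strand gene had one in 154 of 552, 27.9% (24.2 to 31.8). Of the 379 pairs with a region, 145 had it on the minus side alone, 147 on the plus side alone, 49 on both, 23 only between the starts, and 15 on 1 side and between.

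The share changed little with the distance between the starts. The median distance was 129.5 bp, with quartiles of 67 and 240 bp and a range of 1 to 987 bp, and 518 pairs were at most 200 bp apart. A region was present at 52.6% of pairs 1 to 100 bp apart, 47.1% at 101 to 200 bp, 52.0% at 201 to 300 bp, 33 of 66 pairs at 301 to 500 bp and 47.1% at 501 to 1000 bp. The median distance was 127 bp in pairs with a region and 131 bp in pairs without. At the rule's edge, 8 of 16 pairs 801 to 1000 bp apart and 10 of 20 pairs 1001 to 1200 bp apart had a region. Pairs whose starts cross, so that the genes overlap head to head, are outside the rule: 210 of 457 of them, 46.0% (41.3 to 50.6), had a region.

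The share of pairs with a region was above the one-gene share on each of the 20 chromosomes that hold pairs, though the window of a pair is longer than that of a single start. It ran from 25% of 20 pairs on X to 69.2% of 26 pairs on chromosome 3, where the one-gene shares were 9.26% and 21.9%. Chromosomes 3, 5, 11 and 15 together had 49.0% of bidirectional starts with a region and 23.4% of one-gene starts, against 41.7% and 15.9% elsewhere.

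The regions at bidirectional promoters had low scores within the list. Each region's score was assigned by the authors. The bdgdiff step of MACS2 writes a log10 likelihood ratio there, although the column is unnamed in the list. The 444 regions had, in the authors' deposited table, a median score of 4.70 (4.58 to 4.88), with a range of 3.14 to 21.1. Regions at one-gene starts had a median of 4.75 (4.70 to 4.81) and all 70 µM regions one of 6.63 in the authors' deposited table. The intervals of the first 2 overlap. Higher scores were rarer still: the 90th percentile in the authors' deposited table was 6.89 at bidirectional promoters, 8.35 at one-gene starts and 19.6 in all 70 µM regions.

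A score under 6 in the authors' deposited table belonged to 352 of the 444 regions, and 10 scored 10 or more. Of all 70 µM regions scored 3 to 4 in the authors' deposited table, 1.71% lay at bidirectional promoters, and of those scored 18 to 45, 0.023% did. The share at one-gene starts also fell between these score classes of the authors' deposited table, from 16.3% to 1.17%. The commonest score in the authors' deposited table, 19.01, was shared by 2552 regions, and the next, 4.01, by 1021. Of the 444 regions 0 had either value, which allows a share of up to 0.827%, against 1.03% at one-gene starts and 7.85% of all 70 µM regions. Width differed less: the median was 194 bp (187 to 199) with a range of 120 to 900 bp, against 188 bp at one-gene starts and 170 bp in the whole set. The regions' GC content had a median of 60.7% and their CpG number one of 6.44 per 100 bp, against 62.1% and 6.42 at one-gene starts.

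**Figure D3:**
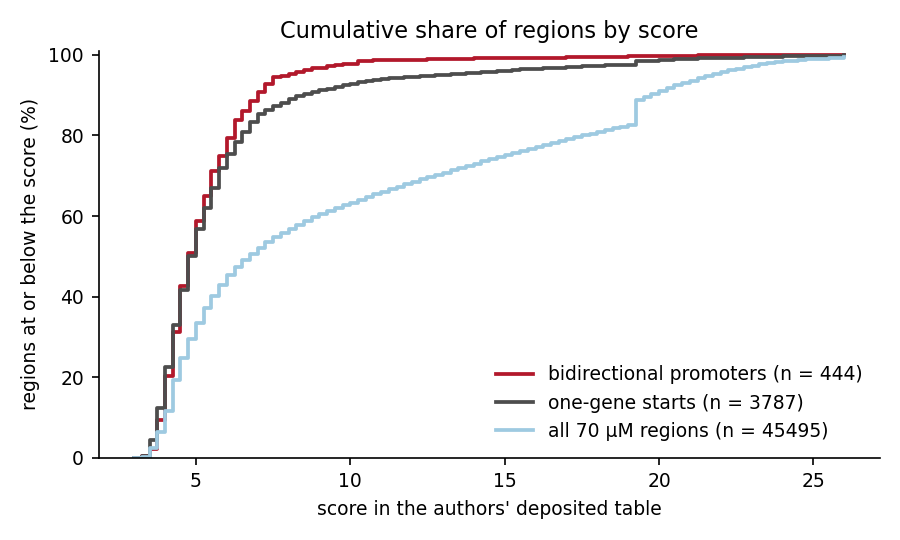
Cumulative share of regions in percent (vertical axis) by the score in the authors' deposited table (horizontal axis) for bidirectional promoters (red), one-gene starts (grey) and all 70 µM regions (blue). The red and grey curves rise together, with medians of 4.70 and 4.75, and the blue curve lies to the right and steps at 19.01.

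The region with the highest score in the authors' deposited table, 21.1, lay 317 bp into S100a13, in an intron (chr3:90514648-90514857). S100a13 and its partner S100a1 code for calcium-binding proteins of the S100 family, and their starts are 43 bp apart. The next were 18.8 in an intron of Shroom1 (chr11:53457324-53457483), an actin-binding Shroom family gene paired with Gm10447, 16.9 in an intron of Rad51ap1 (chr6:126939364-126939509), a gene of homologous recombination, and 16.7 in an untranslated exon of Phospho2 (chr2:69789816-69789977), a phosphatase gene, in the authors' deposited table. The fifth, at 13.9 in the authors' deposited table, lay 215 bp into Mmachc (chr4:116708055-116708328), which codes for a protein that processes cobalamin, the cofactor of methionine synthase; its partner is Ccdc163. None of these 5 pairs had a region on the other gene's side. S100a1/S100a13 and Mmachc/Ccdc163 were CpG-poor for bidirectional promoters, with 33 and 42 CpG sites in the 1001 bp at the pair.

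Pairs with several regions had them on different sides. Nit1/Pfdn2, a nitrilase-like amidase and a prefoldin subunit with starts 24 bp apart, had a region of score 12.3 reaching over both starts and another of 3.91 at 321 bp into Pfdn2, in the authors' deposited table. Kctd10/Ube3b, an adaptor of a cullin ubiquitin ligase and a HECT ubiquitin ligase, had a region of score 8.39 over the printed stretch with both starts and one of 10.7 at 491 bp into Ube3b (chr5:114380941-114381256), in the authors' deposited table. Pld3/2310022A10Rik had a region 463 bp into Pld3, of score 10.2 in the authors' deposited table, and one between the starts. The region at Rnft2/2410131K14Rik, of score 10.1 in the authors' deposited table, lay 199 bp into the plus-strand gene. Only Ctns/Shpk and Dok1/Loxl3 had 3 regions. At Ctns, the lysosomal cystine transporter, 1 lay 272 bp into the gene, and at Shpk, a sugar kinase, 2 lay 49 and 458 bp in. At Dok1, a docking adaptor of receptor signalling, 2 lay 70 and 401 bp in, and at Loxl3, a lysyl oxidase family gene, 1 lay 424 bp in.

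The widest region, 900 bp (chr5:115340509-115341408), reached over both starts of Gatc/Triap1, a subunit of the mitochondrial glutamyl-tRNA amidotransferase and an inhibitor of apoptosis. The others were 779 bp in Camkmt, the calmodulin lysine methyltransferase, 771 bp in Ppil4, a peptidylprolyl isomerase-like gene, 744 bp in Usp35, a deubiquitinase, and 676 bp in Tbc1d22b. Their scores in the authors' deposited table lay between 4.17 and 6.51. Regions at or above the whole list's median score in the authors' deposited table had a median width of 220 bp (204 to 273). The median width of all 444 was 194 bp. Only 4 regions scored above the list's upper quartile in the authors' deposited table. Their widths ran from 146 to 210 bp with a median of 161 bp, and 4 regions are too few to tell how width goes with the score.

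**Figure D4:**
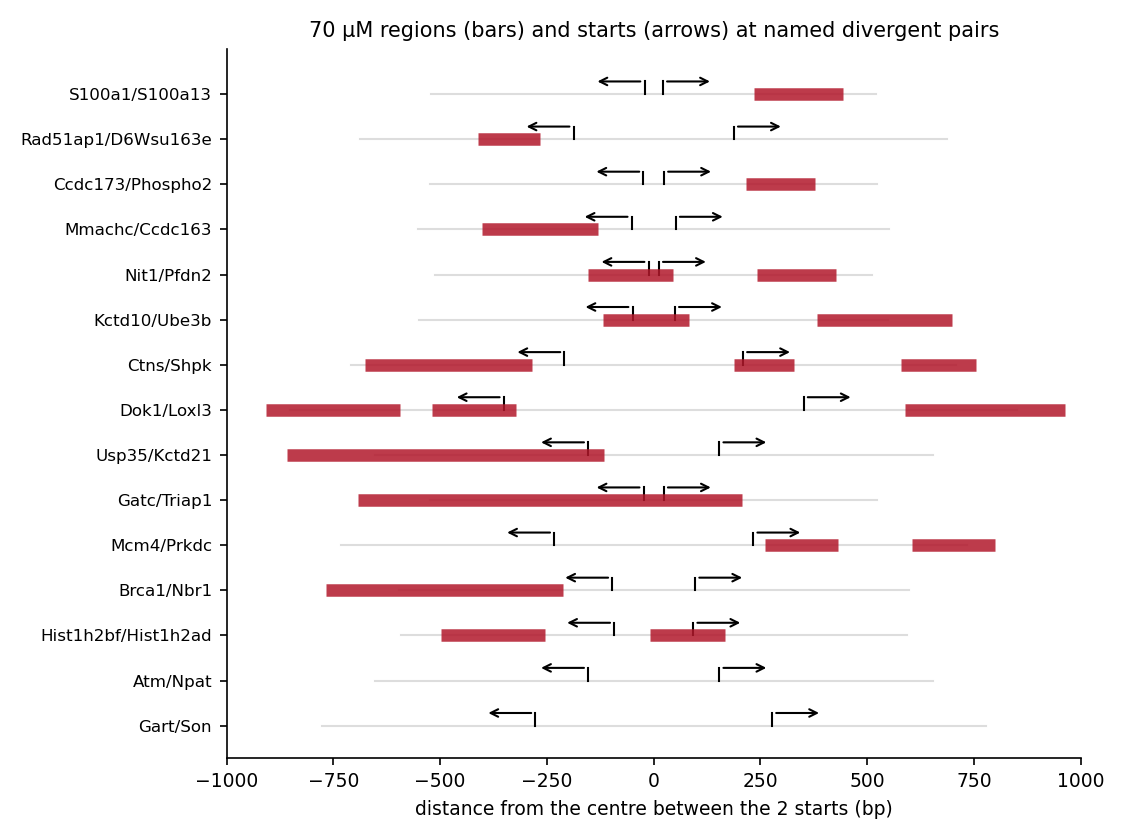
Position of the 70 µM regions (red bars) and of the 2 starts (arrows, in the direction of transcription) at 15 named pairs, in bp from the centre between the starts; the grey line is the window of the rule. Most bars lie outward of the arrows, bars at Nit1/Pfdn2, Kctd10/Ube3b and Gatc/Triap1 cover both starts, and Atm/Npat and Gart/Son have none.

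Pairs known from textbooks were mixed. Brca1, a tumour suppressor of homologous recombination, and Nbr1, an autophagy receptor, had 1 region of 557 bp (chr11:101551284-101551840) centred 393 bp into Brca1, scored 4.44 in the authors' deposited table. Mcm4, a subunit of the replicative helicase, and Prkdc, the kinase of DNA end joining, had 2 regions, both in Prkdc, at 112 and 469 bp. Atm, the DNA damage kinase, with Npat, the activator of histone genes, and Gart, of purine synthesis, with Son, a splicing factor, had 0. Other textbook pairs have crossing starts and fall outside the rule. Among those, the mitochondrial chaperonins Hspd1/Hspe1 had 2 regions, Tk1/Afmid 1 and the basement membrane collagens Col4a1/Col4a2 1, while Surf1/Surf2 and Ppat/Paics had 0.

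Gene lists by function differed in how many of their bidirectional starts had a region. Against 43.4% of all bidirectional starts, the lists above it included those of mitochondria, DNA repair and general transcription. In the respiratory chain and ATP synthase list 16 of 24 bidirectional starts had a region, beside 29 of 65 one-gene starts. In DNA repair it was 17 of 26 beside 20 of 48, in RNA polymerases and general transcription factors 14 of 24 beside 28 of 73, in proteasome and ubiquitin transfer 7 of 12 beside 41 of 119, and in mitochondrial protein import 3 of 5 beside 6 of 17. Mitochondrial ribosomal proteins had 9 of 18 beside 13 of 44. The numbers are small, and the lists were not tested.

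**Figure D5:**
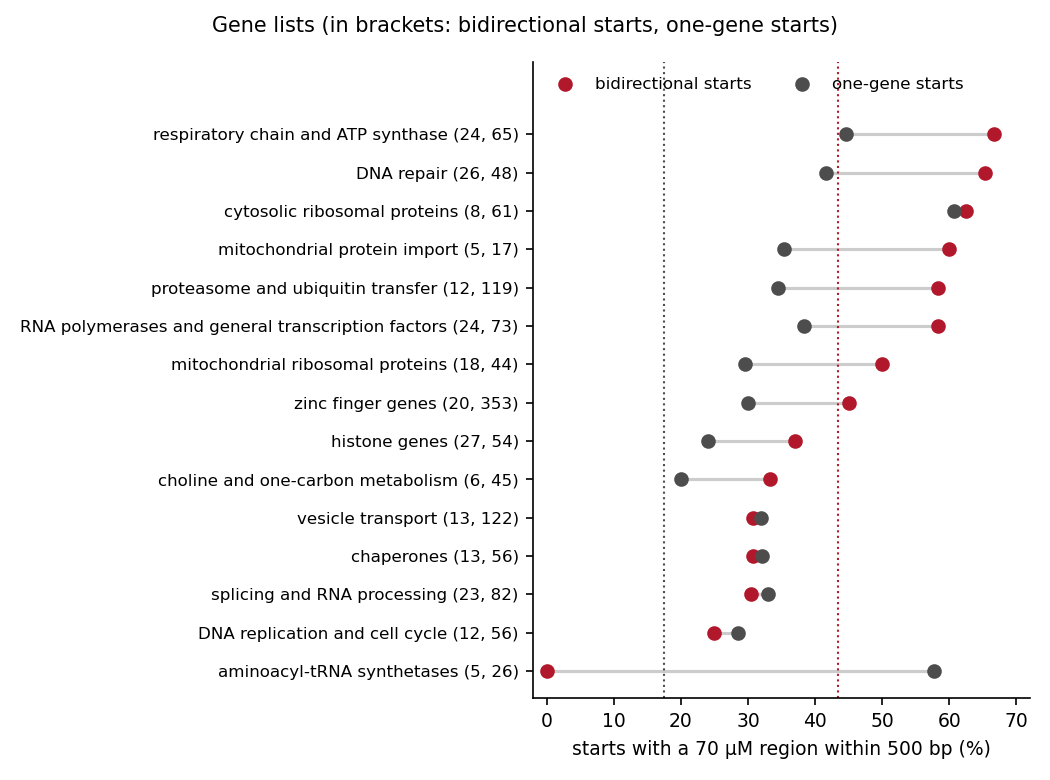
Share of bidirectional (red) and one-gene (grey) starts with a 70 µM region within 500 bp, in percent, for the 15 lists with at least 5 bidirectional starts, whose numbers stand in brackets; the dotted lines are the shares over all starts of each kind, 43.4% and 17.5%. Red lies right of grey in 10 lists and left of it in 5.

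In the mitochondrial lists, the regions were at genes of each part of the system. Uqcrq, of complex III, and its partner Gdf9 had a region 82 bp into Gdf9, Ndufv3, of complex I, and Wdr4 one 173 bp into Wdr4, and the complex I assembly factor Ndufaf8 and Tepsin 1 region on each side. Sdhd, of complex II, shares its promoter with the import chaperone Timm8b, and the region lay 168 bp into Sdhd. Timm23, the pore of the inner membrane translocase, paired with Parg, had 1 region 185 bp into Timm23, and Timm9 had 1 region on each side of its pair. Among mitochondrial ribosomal proteins, Klc4/Mrpl2 had a region 481 bp into Mrpl2, that of Mrpl37/Cyb5rl covered the printed stretch, Ncapd2/Mrpl51 had 1, and Mitd1/Mrpl30 had 0.

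DNA repair pairs with a region included Xrcc3/Zfyve21 and Emc3/Fancd2, of recombination and cross-link repair, and Xpc/Lsm3, in which the nucleotide excision repair gene Xpc and the splicing gene Lsm3 each had 1. Acot13/Tdp2 had 0. Of the transcription list, Taf5l, a subunit of histone acetyltransferase complexes, and Urb2 had 2 regions, at 55 and 445 bp into Urb2. Gtf2e1, of general factor TFIIE, had 1 at 480 bp, Polr1c/Yipf3 had 1 on the Yipf3 side at 63 bp, and Dzank1/Polr3f had 0. A region on the partner's side counts for both genes when it is within 500 bp of both starts. Proteasome pairs with a region were Ftsj3/Psmc5 and Psma7/Ss18l1, and Dnajc2/Psmc2 had 0; BC005624/Usp20 had 1, on the side of BC005624.

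Lists below 43.4% included splicing and RNA processing with 7 of 23 beside 27 of 82 one-gene starts, chaperones with 4 of 13 beside 18 of 56, vesicle transport with 4 of 13 beside 39 of 122, and DNA replication and cell cycle with 3 of 12 beside 16 of 56. In these 4 the bidirectional share was no higher than the one-gene share. Aminoacyl-tRNA synthetases, which charge tRNAs, had 0 of 5 bidirectional starts beside 15 of 26 one-gene starts. The pair of the lysine enzyme, Kars/Terf2ip, did hold a region, but 428 bp into Terf2ip and so over 500 bp from the start of Kars. Cytosolic ribosomal proteins were alike at both kinds, with 5 of 8 and 37 of 61, among them Rps24, Rps27 and Rpl4, while Iqcg/Rpl35a had 0.

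In these lists the highest-scoring named regions were at pairs with genes of vesicle transport, the cell cycle and replication. Galns/Trappc2l, the latter a subunit of a vesicle tethering complex, had a region 21 bp into Galns, scored 9.09 in the authors' deposited table. The score was 8.61 in the authors' deposited table for a region 15 bp into Anapc2, the cullin-like subunit of the anaphase-promoting complex. Next came 7.73 in the authors' deposited table at 12 bp into Vps50, which had another region on the side of its partner Hepacam2. The score in the authors' deposited table was 7.33 at 405 bp into Abhd12, the partner of Gins1. It was 7.31 in the authors' deposited table at 469 bp into Prkdc, the partner of Mcm4. Cct5, of the cytosolic chaperonin, had 7.19 at 397 bp in the authors' deposited table. Hspa14/Cdnf 1 in Cdnf, Dnajb4/Fubp1 1 in each gene and Bag4/Lsm1 1 in Bag4, while Abce1/Anapc10, Bckdha/Exosc5 and Bloc1s3/Trappc6a had 0. Zinc finger genes, a list just above 43.4%, had 9 of 20 bidirectional starts with a region beside 106 of 353 one-gene starts, among them Zfp277, Zfp664 and Zfp654.

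Histone genes are the list in which pairs most often join members of the same list: 13 of the 14 pairs were of 2 histone genes, mostly an H2A gene with an H2B gene, and 6 of the 13 had a region. By starts it was 10 of 27 beside 13 of 54 one-gene histone starts. Hist1h2bf/Hist1h2ad had a region of score 6.87 in the coding exon of Hist1h2bf and one of 4.58 over the printed stretch with 4 CCAAT boxes, in the authors' deposited table. Hist1h2bq/Hist1h2ao and Bola1/Hist2h2ab had 1 each and Hist1h2ac/Hist1h2bc 0. Histone genes are near-identical copies, so reads may have been placed on the wrong copy.

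Of choline and one-carbon genes, 2 of 6 bidirectional starts had a region, beside 9 of 45 one-gene starts. Mthfd2, the mitochondrial folate enzyme, paired with Mob1a, had 1 region 362 bp into Mthfd2 and 1 at 58 bp into Mob1a. Bhmt2, a homocysteine methyltransferase gene, and Dmgdh, the dimethylglycine dehydrogenase of betaine breakdown, form a pair that had 0. The scores of the regions at Mthfd2/Mob1a in the authors' deposited table were 3.66 and 4.03, near its lower end. Lists with few bidirectional starts were nucleotide synthesis with 0 of 1, collagens by symbol with 1 of 3, which was Col4a3bp, a lipid transfer protein and no collagen, and olfactory and vomeronasal receptors with 1 of 1, Vmn1r4, whose pair had both regions in Nt5c3. At one-gene starts of that receptor list 4 of 1453 had a region. Col4a4/Col4a3, Cct6b/Zfp830 and Pqbp1/Timm17b had 0. None of the cell type markers was at a bidirectional promoter; among one-gene starts, 0 of 19 neuronal markers and 5 of 19 markers of glia, leukocytes and fibroblasts had a region, which says nothing of H3K9ac present at both levels.

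Short motifs were counted at the starts of both kinds of promoter. In the 300 bp from 250 before to 50 after the start, the ETS motif was at 27.3% of bidirectional starts, 9.002% of one-gene starts and 10.8% of all protein-coding starts. Among one-gene starts with CpG numbers above the lower quartile of bidirectional starts it was at 14.96%. Among bidirectional starts it was at 28.5% (25.1 to 32.2) with a region and 26.4% (23.4 to 29.5) without. The GC box was at 68.9% of bidirectional and 43.0% of all starts, but at 76.7% of the CpG-rich one-gene starts, and the TATA box at 4.10% and 12.6%, with 5.61% at the CpG-rich one-gene starts. The CCAAT box was at 44.0% and 39.0%, and the YY1 motif AAGATGGC at 8.20% and 2.92%. Starts of a pair were 129.5 bp apart in the median, so their windows could overlap and a match could count for both starts. The window of a bidirectional start can also hold the partner's start, and the shares were not corrected for this.

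With a region against without, the bidirectional shares were 8.68% (6.62 to 11.1) and 5.23% (3.82 to 6.95) for NRF1, 14.1% (11.5 to 17.0) and 9.38% (7.498 to 11.6) for the E-box, 3.26% and 5.46% for the cAMP response element TGACGTCA, and 24 of 645 and 32 of 842 starts for CTCGCGAG, a ZBTB33 motif. All starts had NRF1 at 3.71%, the E-box at 7.75%, the cAMP response element at 2.43% and the ZBTB33 motif at 1.21%. At the CpG-rich one-gene starts the first 3 were at 6.002%, 11.5% and 3.69%, close to the 6.72%, 11.4% and 4.51% of all bidirectional starts. The intervals for NRF1 and the E-box with and without a region overlap. All these intervals treat starts as independent, although the starts of a pair can share sequence. In the exon-free stretches between starts, available for 568 pairs, the ETS motif was in 40 of 286 pairs with a region and 39 of 282 without, the GC box in 141 and 134, and the CCAAT box in 92 and 95. A match is a run of letters and not evidence of binding.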

How the data were processed

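The tools named in the submitters' processing notes are Bowtie 1.0.0, CASAVA 1.8 and MACS2, whose version is not given, and the build is mm10. Per the series' design text, peaks were called against input and differences between control and supplemented cells with bdgdiff. Per the file headers, the deposited list holds regions unique to either condition, each with a position and a score, a value the authors assigned. The scaling between libraries is not given in the sources used, and each library's depth is unknown. A deeper or cleaner library can give its condition more regions.

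Regions were set against GENCODE M21 starts and RefSeq GRCm38.p6 sequence with Python 3.11.15, pandas 2.3.3, numpy 2.4.6, scipy 1.17.1 and matplotlib 3.10.9. The scripts were tested on simulated data. No region was filtered out. Shares have Clopper-Pearson and medians order-statistic intervals of 95%, over pairs, starts or regions and not libraries. Alternatives were windows of 250 and 1000 bp, score limits, 1 bp of overlap, all transcript starts and CpG classes. The members, lists and tests were chosen with earlier results of these data known.

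Pairs are named by rule: the 10 with the highest score, the 5 widest and the 5 with most regions, textbook pairs, pairs with a region of the other condition, and for each gene list up to 3 pairs with the highest score and 1 without a region. The printed sequences, the gene side alone and the crossing pairs were chosen after the values were seen. Some pairs that the rule names are not reported here.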

Additional observations from a re-analysis of the deposited data

Results flagged for a closer look

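Regions called for control choline, which the report does not use, were also present at bidirectional promoters. Of 360 such regions in the list, 10 lay in the windows of 10 pairs, 2.78%, beside 0.976% of the regions for supplemented choline. By starts it was 16 of 1487 bidirectional starts, 1.08% (0.616 to 1.74), and 61 of 19174 one-gene starts, 0.318% (0.243 to 0.408). The pairs were Rmnd1/Armt1, Dram1/Gnptab, Atp6v1d/Eif2s1, Xrcc3/Zfyve21, Hist1h2an/Hist1h2bp, Elp4/Immp1l, Cfap57/Ebna1bp2, Park7/Tnfrsf9, Lnx2/Polr1d and Hook3/Gm45692, and 6 of them also had a region for supplemented choline. At Elp4/Immp1l, an Elongator subunit and a mitochondrial inner membrane peptidase, the region for control choline, scored 17.3 in the authors' deposited table, lay between 2 regions for supplemented choline. The difference between the kinds of promoter was not tested.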

How the results depend on the processing

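Of 86 values recomputed under alternatives, 54 moved by less than their interval, 31 moved by more and 1 reversed. With the window at 250 and 1000 bp, the share of pairs with a region was 26.1% and 67.6%, that of starts 18.6% and 64.6%, the difference from one-gene starts 9.48 and 37.7 points, and the share of regions between the starts 18.2% and 4.81%. With regions at or above the list's median score in the authors' deposited table, these were 7.43%, 6.12%, 2.67 points and 14.0%, and the median width was 220 bp. Above the upper quartile of scores they were 0.531%, 0.471%, -0.301 points and 0%, with a width of 161 bp. Only 4 regions remained, and the difference changed sign with an interval (-0.582 to 0.196) that spans both signs. That interval takes the one-gene share as fixed. With any overlap they were 56.2%, 51.1% and 30.8 points. With the starts of all transcripts the share of starts was 49.9%. In CpG classes of rising number the difference was 22.8, 13.3, 12.8 and 19.3 points. Alternatives chosen after seeing the data were the gene side alone, with 14.7 points and 13.1, 4.81, 6.38 and 9.33 by class, and crossing pairs, with 46.0%. The cause of these shifts was not tested.

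No paired analysis was possible because no deposited column belongs to a single library. Leaving out a library was not possible for the same reason. Read depth is not known, so neither is the smallest difference that these libraries resolve.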
